A study of Homo sapiens with 12 samples.

Results

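The genes of polyamine metabolism were examined in human acute myeloid leukemia (AML) cells treated with a FLT3 inhibitor with or without stromal conditioned medium. The group was the 10 table rows named ODC1, AMD1, SRM, SMS, SAT1, OAZ1, OAZ2, AZIN1, DHPS and DOHH, of 57353 gene names in the count table. All 10 were among the 12998 genes that passed the filter on low counts, and 30572 names had a count in at least 1 library. The data were 12 RNA-seq libraries of MOLM-13 cells, an established AML line that carries the FLT3 internal tandem duplication (FLT3-ITD). There were 3 libraries in each of 4 groups, which were vehicle (DMSO) in RPMI, quizartinib in RPMI, vehicle in hBMSC-CM and quizartinib in hBMSC-CM. Quizartinib (AC220), a small molecule inhibitor of the FLT3 kinase, was given at 3 nM, and every group was treated for 15 hr. RPMI is the standard culture medium, and hBMSC-CM is medium conditioned by HS-5 cells, a human bone marrow stromal line, mixed with RPMI. All libraries carried the genotype label WT and came from 1 cell line. The study describes its replicates as biological, without saying how the cultures were set up, so the p-values measured the spread between replicates of this line. Total counts per library ran from 19966546 to 31546104.

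Putrescine, spermidine and spermine are small positively charged amines that bind RNA, DNA and chromatin, and dividing cells keep them at high levels. Ornithine decarboxylase makes putrescine, and spermidine synthase and spermine synthase then add aminopropyl groups supplied by S-adenosylmethionine decarboxylase, while acetylation marks the amines for breakdown or export. Antizymes send ornithine decarboxylase to the proteasome and antizyme inhibitor counters them, and spermidine is also the source of hypusine, a modified lysine that the translation factor eIF5A needs. MYC, a transcription factor, is known to activate ODC1, and it binds the E-box.

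The canonical E-box CACGTG, the same on both strands, was searched in the stretch from 250 bases before to 50 bases after each RefSeq start site (GRCh38.p14). It was the only motif searched, and 2548 of 35116 windows (7.26%) held it. A window was given for 9 of the 10 genes, AZIN1 being the one not matched, with 12 windows in all. The motif was in the windows of SRM and DOHH and in 1 of the windows of ODC1, and these 3 are shown because they hold it. Each runs 5′ to 3′ on the minus strand, the strand of the gene, with the E-box in capitals.
ODC1, chr2:10448018-10448077, within the first intron of the canonical transcript and before a second start site: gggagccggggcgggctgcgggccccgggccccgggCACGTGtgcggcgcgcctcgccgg
SRM, chr1:11060185-11060244, before the start of the gene: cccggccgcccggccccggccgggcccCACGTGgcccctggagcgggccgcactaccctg
DOHH, chr19:3500675-3500734, immediately before the start of the gene: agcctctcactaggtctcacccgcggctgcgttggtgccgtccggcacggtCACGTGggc
The E-box began 29 bases before the second start site of ODC1, 199 bases before the start site of SRM and 9 bases before that of DOHH. The same ODC1 window held 2 E-boxes, and the other, not printed, lies just past that start site. The second ODC1 start site lies 315 bases from the first, whose own window held no E-box. The windows of AMD1, SMS, SAT1, OAZ1, OAZ2 and DHPS held none. A match is a description of the letters and was not tested as a binding site.

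Quizartinib lowered all 4 genes that make the polyamines and raised SAT1, the gene that acetylates them, in both media. With quizartinib in RPMI, SRM fell to 14.8%, ODC1 to 25.2%, AMD1 to 46.9% and SMS to 67.9% of the vehicle level, while SAT1 rose to 295%. In hBMSC-CM the corresponding levels were 48.2%, 43.3%, 77.0%, 78.1% and 230%. Values below are CPM, a gene's count divided by the library's count on tested genes and given per 1000000, after TMM scaling between libraries, and tests are from edgeR's quasi-likelihood model with Benjamini-Hochberg adjustment over all genes tested, with a call at an adjusted p under 0.05. In these bulk samples, fewer cells expressing a gene and less RNA per cell cannot be told apart. These levels are shares of the counts in a library, so a change in the total RNA of the cells would not show. In a separate polysome experiment, the study reports lower RNA yields with quizartinib, more so in polysomes than in whole lysates.

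**Figure D1:**
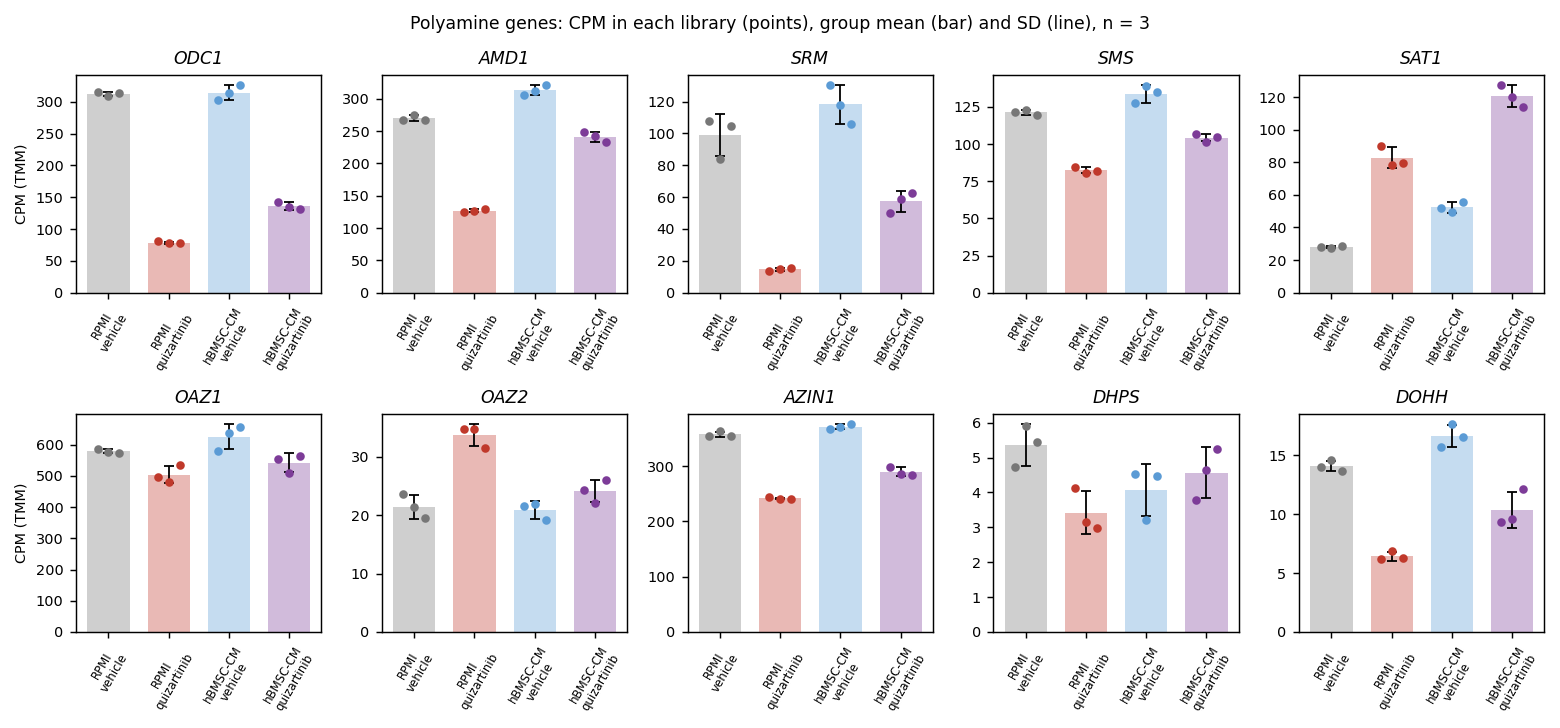
CPM of each of the 10 polyamine genes (vertical axes, from 0) in the 4 groups, with a point for each library, bars for the group means and lines for the SD (n = 3). ODC1, AMD1, SRM, SMS, AZIN1 and DOHH were lowest with quizartinib in RPMI, and SAT1 was highest with quizartinib in hBMSC-CM.

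Ornithine decarboxylase, encoded by ODC1 (GRCh38, chr2:10439968-10448327, minus strand), catalyses the step to putrescine. Its level was 315, 309 and 313 CPM with vehicle in RPMI, and 80.6, 78.2 and 77.4 CPM with quizartinib in RPMI. In hBMSC-CM it was 303, 314 and 326 CPM with vehicle and 142, 135 and 131 CPM with quizartinib. All quizartinib libraries lay below all vehicle libraries, and those in hBMSC-CM lay above those in RPMI. On the log2 scale the change with quizartinib was -1.99 in RPMI (95% interval -2.08 to -1.90, edgeR adjusted p = 1.51e-19) and -1.21 in hBMSC-CM (-1.30 to -1.12, adjusted p = 2.43e-15). The medium by itself left ODC1 within the spread of the replicates, with a log2 difference of 0.01 between the vehicle groups (95% interval -0.08 to 0.09, adjusted p = 0.899). Under quizartinib, ODC1 in hBMSC-CM exceeded its RPMI level by 0.79 on the log2 scale (adjusted p = 1.41e-12), a comparison that uses the same RPMI quizartinib libraries as the drug comparison in RPMI.

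AMD1 (chr6:110874770-110898879, plus strand) encodes S-adenosylmethionine decarboxylase, which supplies the aminopropyl groups. It measured 267, 276 and 267 CPM with vehicle in RPMI and 124, 127 and 129 CPM with quizartinib in RPMI. In hBMSC-CM its levels were 307, 313 and 322 CPM with vehicle and 249, 243 and 233 CPM with quizartinib. The 4 groups did not overlap, in the order vehicle in hBMSC-CM, vehicle in RPMI, quizartinib in hBMSC-CM and quizartinib in RPMI. AMD1 had a log2 fold change with quizartinib of -1.09 in RPMI (95% interval -1.18 to -1.01, edgeR adjusted p = 5.26e-16) and -0.38 in hBMSC-CM (-0.46 to -0.29, adjusted p = 4.27e-08). Unlike ODC1, AMD1 was already higher in hBMSC-CM with vehicle, by 0.22 (adjusted p = 0.000279), although the difference between the 2 genes was not tested.

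SRM (chr1:11054584-11060020, minus strand) encodes spermidine synthase and had the largest drug response of the 10 genes in RPMI. It measured 108, 83.7 and 105 CPM with vehicle in RPMI, and 13.6, 14.8 and 15.4 CPM with quizartinib. The corresponding levels in hBMSC-CM were 130, 118 and 106 CPM with vehicle and 50.3, 58.9 and 62.8 CPM with quizartinib. The vehicle groups of the 2 media overlapped, and every quizartinib library in hBMSC-CM lay above every one in RPMI and below every vehicle library. For SRM the log2 fold change with quizartinib was -2.76 in RPMI (95% interval -2.97 to -2.55, edgeR adjusted p = 5.35e-16) and -1.05 in hBMSC-CM (-1.24 to -0.87, adjusted p = 1.38e-09). With quizartinib, SRM in hBMSC-CM stood at 3.92 times its RPMI level (log2 difference 1.97, adjusted p = 6.65e-13). With vehicle it differed by 0.26 between the media (adjusted p = 0.0215), a call that was lost with DESeq2 (0.26, adjusted p = 0.105), without vehicle replicate 2 in RPMI (0.16) or without vehicle replicate 1 in hBMSC-CM (0.18).

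SMS (chrX:21940709-21994837, plus strand), which encodes spermine synthase, changed least among the synthesis genes. It fell from 122, 123 and 120 to 84.5, 80.7 and 82.1 CPM in RPMI, and from 127, 139 and 135 to 107, 102 and 105 CPM in hBMSC-CM. The 4 groups did not overlap, in the same order as for AMD1. The log2 fold changes were -0.56 (edgeR adjusted p = 9.77e-11) and -0.36 (adjusted p = 2.2e-07). With vehicle, SMS was higher in hBMSC-CM by 0.14 (adjusted p = 0.0139), and this call was lost without vehicle replicate 2 in hBMSC-CM (0.12).

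SAT1 (chrX:23783173-23786210, plus strand) encodes spermidine/spermine N1-acetyltransferase, the enzyme that acetylates spermidine and spermine. It moved opposite to the synthesis genes with the drug, and it was raised by the medium under either treatment. Its level was 28.1, 27.6 and 28.4 CPM with vehicle in RPMI and 90.2, 78.6 and 79.6 CPM with quizartinib in RPMI. In hBMSC-CM it stood at 51.8, 49.4 and 55.7 CPM with vehicle and 127, 120 and 114 CPM with quizartinib. The groups were apart from each other, with the lowest level in RPMI vehicle and the highest with both quizartinib and hBMSC-CM. Its log2 fold change with quizartinib was 1.56 in RPMI (95% interval 1.43 to 1.69, edgeR adjusted p = 1.48e-15) and 1.20 in hBMSC-CM (1.08 to 1.32, adjusted p = 2.48e-13). The medium raised SAT1 both with vehicle (0.90, adjusted p = 8.81e-10) and with quizartinib (0.54, adjusted p = 2.41e-08). Against vehicle in RPMI, the cells given both quizartinib and hBMSC-CM held 430% of the SAT1 level (log2 difference 2.10, adjusted p = 7.7e-17).

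The ratio of ODC1 to SAT1 counts within a library, a value that no scaling between libraries can change, was 11.1 ± 0.104 with vehicle in RPMI (SD, n = 3). It was 0.954 ± 0.0531 with quizartinib in RPMI, 6.02 ± 0.294 with vehicle in hBMSC-CM and 1.13 ± 0.0169 with quizartinib in hBMSC-CM. Counts of the synthesis gene thus exceeded those of the acetylation gene several times over in both vehicle groups and were close to them in both quizartinib groups. The 4 groups did not overlap, and each of the 4 comparisons of this ratio gave a two-sided exact permutation p = 0.1, the smallest that 3 against 3 libraries can give (adjusted p = 0.114 over the 8 comparisons of both ratios).

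**Figure D2:**
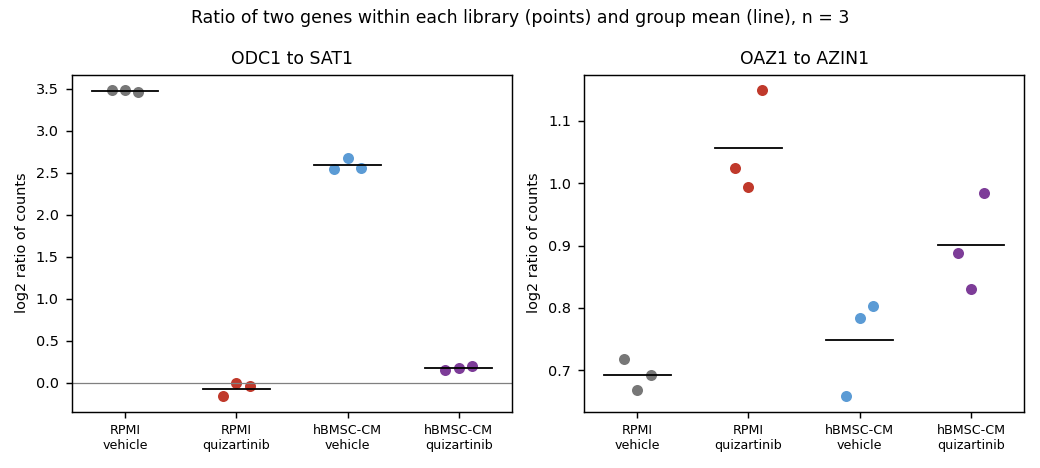
The log2 ratio of counts of ODC1 to SAT1 (left) and of OAZ1 to AZIN1 (right) in each library (points), with a line at the mean of each group (n = 3). The ODC1 to SAT1 means were 3.48, -0.07, 2.59 and 0.18 from left to right, and the OAZ1 to AZIN1 means were 0.69, 1.06, 0.75 and 0.90, with vertical scales that differ between the panels.

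OAZ1, OAZ2 and AZIN1, the members that regulate ornithine decarboxylase, had smaller log2 fold changes with the drug than ODC1 itself, a difference that was not tested. OAZ1 (chr19:2269509-2273490, plus strand), the main antizyme gene, measured 585, 577 and 572 CPM with vehicle in RPMI and 495, 481 and 535 CPM with quizartinib. In hBMSC-CM its levels were 579, 638 and 656 CPM with vehicle and 554, 507 and 563 CPM with quizartinib. The drug groups lay below the vehicle groups of the same medium, and the media overlapped under either treatment. The log2 fold changes with quizartinib were -0.20 in RPMI (edgeR adjusted p = 0.00188) and -0.21 in hBMSC-CM (adjusted p = 0.00189). These small changes depended on scaling: without scaling beyond library size they were -0.11 (adjusted p = 0.0540) and -0.10 (adjusted p = 0.0857), and with upper-quartile scaling the first was -0.10 (adjusted p = 0.0950).

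OAZ2 (chr15:64687573-64703281, minus strand), a second antizyme gene, was the one to rise with the drug among OAZ1, OAZ2 and AZIN1. Its levels in RPMI were 23.6, 21.4 and 19.5 CPM with vehicle and 34.8, 34.8 and 31.6 CPM with quizartinib. The levels in hBMSC-CM were 21.5, 22.0 and 19.2 CPM with vehicle and 24.4, 22.2 and 26 CPM with quizartinib. Only the RPMI quizartinib libraries stood clear of all others. OAZ2 had a log2 fold change of 0.65 in RPMI (95% interval 0.49 to 0.80, edgeR adjusted p = 8.57e-08). In hBMSC-CM it was 0.21 (0.04 to 0.37, adjusted p = 0.0244), a call that was lost with no filter on low counts (0.18), without vehicle replicate 3 (0.15), or without quizartinib replicate 1 (0.20) or 3 (0.16).

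AZIN1 on chromosome 8, which encodes antizyme inhibitor, an inactive relative of ornithine decarboxylase that binds antizyme, fell with the drug. Its levels were 355, 363 and 354 CPM with vehicle and 243, 241 and 241 CPM with quizartinib in RPMI. In hBMSC-CM they were 367, 371 and 376 CPM with vehicle and 299, 285 and 285 CPM with quizartinib. The groups did not overlap, and the log2 fold changes were -0.56 in RPMI (edgeR adjusted p = 1.43e-11) and -0.36 in hBMSC-CM (adjusted p = 5e-08). The ratio of OAZ1 to AZIN1 counts was 1.62 ± 0.0281 with vehicle and 2.08 ± 0.121 with quizartinib in RPMI (SD, n = 3). In hBMSC-CM the ratio was 1.68 ± 0.0905 with vehicle and 1.87 ± 0.102 with quizartinib. The ratio was thus higher in the drug libraries than in the vehicle libraries of the same medium, without overlap. The two-sided exact permutation p was 0.1 in each medium, the smallest that 3 against 3 libraries can give (adjusted p = 0.114). The vehicle groups of the 2 media overlapped in this ratio (exact permutation p = 0.4).

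Hypusine is formed by deoxyhypusine synthase and then deoxyhypusine hydroxylase, encoded by DHPS and DOHH. DOHH (chr19:3490821-3500674, minus strand) measured 14, 14.6 and 13.7 CPM with vehicle in RPMI and 6.17, 6.88 and 6.25 CPM with quizartinib. In hBMSC-CM its levels were 15.7, 17.6 and 16.5 CPM with vehicle and 9.36, 9.57 and 12.1 CPM with quizartinib. The 4 groups did not overlap, and the order was that of AMD1 and SMS. The log2 fold changes were -1.13 in RPMI (95% interval -1.33 to -0.92, edgeR adjusted p = 1.06e-09) and -0.69 in hBMSC-CM (-0.88 to -0.50, adjusted p = 1.22e-06). The difference between media with vehicle was 0.23 (adjusted p = 0.0449), and 8 of its alternatives lost the call, with differences from 0.20 to 0.28 over all alternatives.

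DHPS (chr19:12675717-12681880, minus strand) was the least abundant member and the least precise, with an SD of 11.2% to 18.3% of the group mean. It measured 4.72, 5.91 and 5.44 CPM with vehicle and 4.11, 3.16 and 2.98 CPM with quizartinib in RPMI. In hBMSC-CM it measured 4.52, 3.20 and 4.46 CPM with vehicle and 3.78, 4.65 and 5.25 CPM with quizartinib, and these groups overlapped. Quizartinib changed DHPS by -0.63 on the log2 scale in RPMI (95% interval -0.96 to -0.31, edgeR adjusted p = 0.000955) and 0.13 in hBMSC-CM (-0.20 to 0.46, adjusted p = 0.471). With quizartinib DHPS differed between media by 0.39 (adjusted p = 0.0371). That call was lost with upper-quartile scaling (0.35) and with the replicate number as a block (0.39, edgeR adjusted p = 0.0515). It was also lost without RPMI quizartinib replicate 2 (0.32) or 3 (0.31), and without hBMSC-CM quizartinib replicate 2 (0.38) or 3 (0.29). In the GENCODE v44 annotation, exons of other genes cover 93.5% of the canonical DHPS transcript, so the split of reads between DHPS and those genes is uncertain. The covered share was 19.6% for OAZ1, 8.58% for SAT1 and 3.79% for AZIN1, and 0 for the other 6 members.

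Across the 10 members, quizartinib in RPMI raised 2 (SAT1 and OAZ2) and lowered 8, whereas 79.3% of all genes tested were called, 40.1% higher and 39.2% lower. In hBMSC-CM, 2 members rose, 7 fell and 1 (DHPS) did not pass the test, beside 67.1% of all genes (33.4% higher and 33.7% lower). Most genes tested in these cells were called with the drug, so a called member was no exception in either medium. The median log2 fold change of the members was -0.60 in RPMI and -0.36 in hBMSC-CM, and that of all genes tested was 0.02 and 0.01. Members whose drug and vehicle libraries did not overlap numbered 10 in RPMI and 9 in hBMSC-CM, beside 81.1% and 68.4% of all genes.

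With quizartinib, hBMSC-CM raised 8 members over RPMI and lowered 1 (OAZ2), and 1 (OAZ1, 0.10) did not pass the test, beside 69.8% of all genes called (35.5% higher and 34.3% lower). OAZ1 passed with no filter on low counts (0.18, adjusted p = 0.000307), with filterByExpr (0.14), without RPMI quizartinib replicate 3 (0.14) and without hBMSC-CM quizartinib replicate 2 (0.16). The libraries of the 2 media did not overlap for 8 members, beside 71.5% of all genes. With vehicle, 5 members (AMD1, SRM, SMS, SAT1 and DOHH) were higher in hBMSC-CM, none was lower and 5 did not pass, beside 32.1% of all genes called (16.6% higher and 15.5% lower). Here 6 members did not overlap, beside 44.6% of all genes. Of these 5, SRM, SMS and DOHH had calls that 1 library could end, and DESeq2 called 3 members, without SRM and DOHH. The median member difference between media was 0.47 with quizartinib and 0.13 with vehicle, and that of all genes was 0.00 in both.

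**Figure D3:**
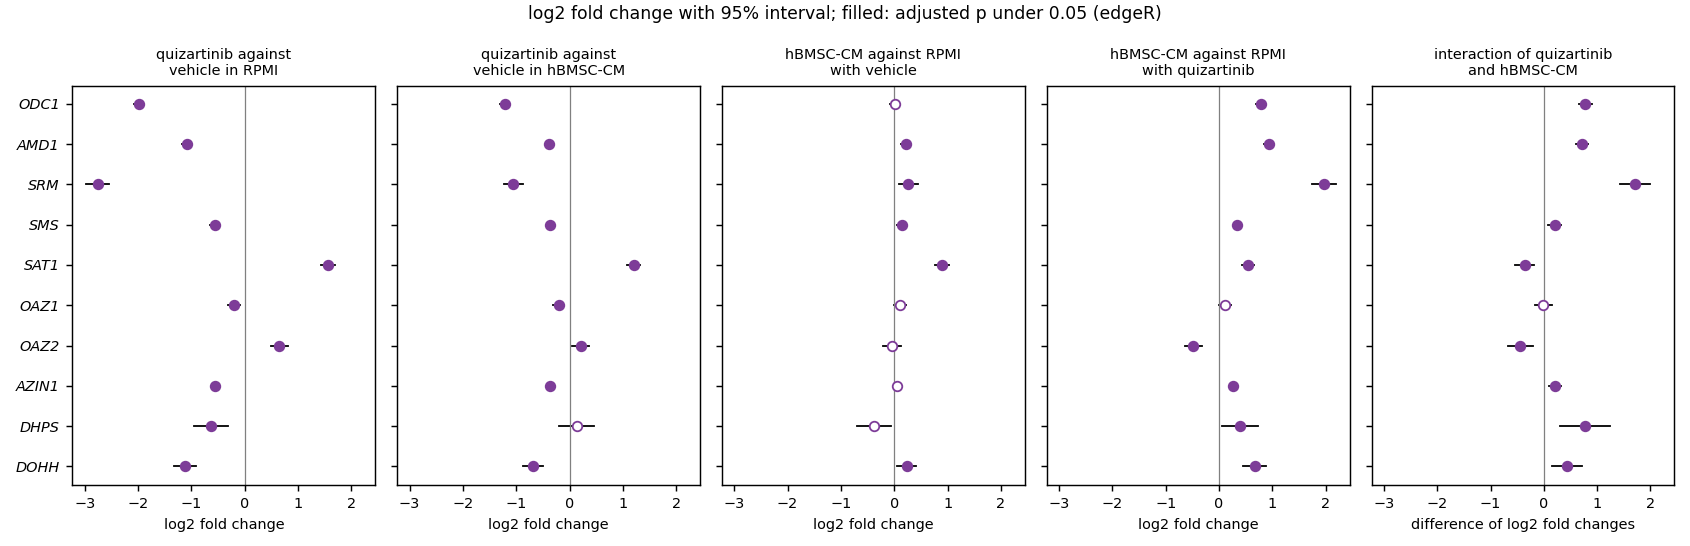
Log2 fold change (points, horizontal axes) with its 95% interval (lines) for each polyamine gene in 5 comparisons, filled where the edgeR adjusted p was under 0.05. The members fell or rose by more with quizartinib in RPMI, from -2.76 for SRM to 1.56 for SAT1, than in hBMSC-CM for every gene but OAZ1.

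Whether the drug response differed between the media was tested with the interaction term, the log2 fold change in hBMSC-CM minus that in RPMI. It was called for 9 of the 10 members, 7 higher and 2 lower, beside 45.2% of all genes (26.1% higher and 19.2% lower). It was largest for SRM, at 1.71 (95% interval 1.43 to 1.99, edgeR adjusted p = 1.6e-09), and was 0.78 for ODC1 (0.65 to 0.91, adjusted p = 1.09e-09) and 0.71 for AMD1 (0.60 to 0.83, adjusted p = 1.41e-09). For the genes that rose, SAT1 and OAZ2, it was -0.36 (adjusted p = 0.00164) and -0.44 (adjusted p = 0.00247). OAZ1 was the exception, at -0.01 (-0.16 to 0.15, adjusted p = 0.950). In hBMSC-CM the log2 change was 34.5% of that in RPMI for AMD1, 38.1% for SRM, 60.8% for ODC1, 61.0% for DOHH, 63.5% for AZIN1, 63.8% for SMS and 77.2% for SAT1. It was 32.2% for OAZ2 and 104% for OAZ1, while DHPS had the opposite sign in hBMSC-CM, and differences between genes in this share were not tested.

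**Figure D4:**
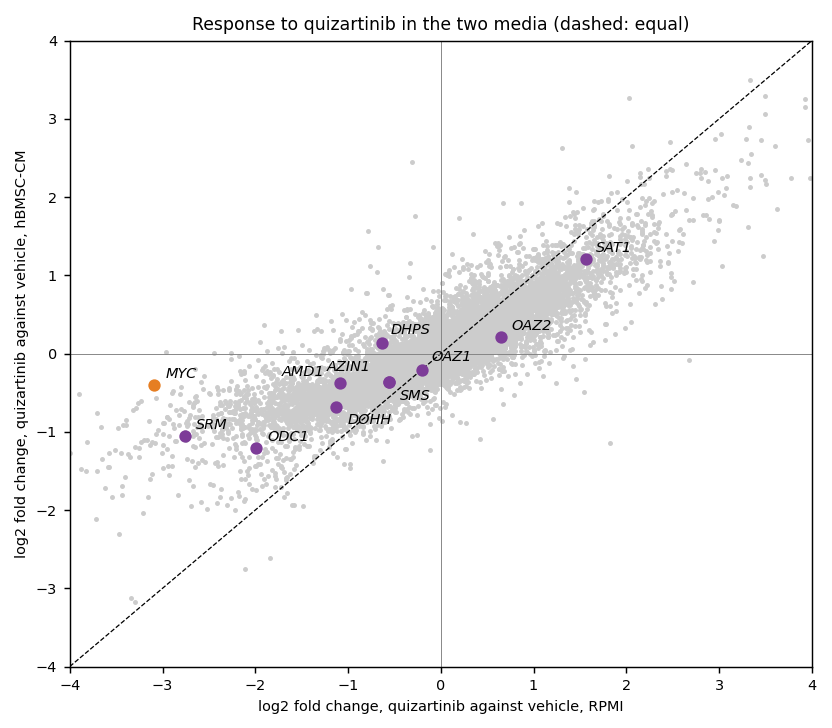
Log2 fold change with quizartinib in RPMI (horizontal axis) and hBMSC-CM (vertical axis) for all genes tested (grey), the 10 polyamine genes (purple) and MYC (orange), with a dashed line where the responses are equal; 23 genes fall outside the axes. The synthesis genes lie above the dashed line in the lower left, and MYC lies farther from it than any of them.

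The cells given both quizartinib and hBMSC-CM were then set against cells given neither. There 1 member (SAT1) was higher, 6 were lower and 3 did not pass the test, beside 62.1% of all genes called (30.6% higher and 31.6% lower). The 2 groups did not overlap for 8 members, beside 66.3% of all genes. AMD1 was 89.4% of the vehicle level in RPMI (log2 difference -0.16, edgeR adjusted p = 0.00138, but -0.07 and not called without scaling beyond library size), SMS 86.0%, AZIN1 81.1%, DOHH 73.1%, SRM 57.9% and ODC1 43.5%. ODC1 thus stayed farthest below its untreated RPMI level, at a log2 difference of -1.20 (95% interval -1.29 to -1.11, adjusted p = 1.8e-15).

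MYC (on chromosome 8) showed another pattern. Its level was 440, 413 and 435 CPM with vehicle and 47.3, 51.9 and 52.5 CPM with quizartinib in RPMI. It was 787, 775 and 800 CPM with vehicle and 583, 585 and 616 CPM with quizartinib in hBMSC-CM. The quizartinib libraries in hBMSC-CM stood above the vehicle libraries in RPMI (log2 difference 0.47, edgeR adjusted p = 1.16e-08), whereas ODC1, SRM and AMD1 stood below theirs. MYC changed with quizartinib by -3.09 on the log2 scale in RPMI (adjusted p = 3.09e-21) and -0.40 in hBMSC-CM (adjusted p = 8.41e-08), with an interaction of 2.68 (adjusted p = 8.58e-17). The 9287 genes that averaged 10 CPM or more were ranked by the root mean square difference of their centred log2 CPM from a member over the 12 libraries, and MYC was 7218th for ODC1, 585th for SRM and 9034th for AMD1. The genes nearest to ODC1 were RFC5 (0.0703 on the log2 scale), DSCC1 (0.0766) and GINS1 (0.0773), those nearest to SRM were TEAD4 (0.131), GEMIN4 (0.136) and RRP12 (0.138), those nearest to AMD1 were ETF1 (0.0395), MTRR (0.0433) and POLR3D (0.0457), and those nearest to SAT1 were FLVCR2 (0.145), THEMIS2 (0.163) and CD226 (0.178). The 12 libraries fall into 4 groups, so these distances describe mostly the group means. The values were centred but not scaled, so the distance counts the size of a change as well as its direction. A gene that moved in the same direction as a member but by more, as MYC did in RPMI, therefore ranks far from it. The ranks do not measure whether MYC and a member moved together.

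The members were expressed at very different levels. Per kilobase of canonical transcript, with vehicle in RPMI, OAZ1 stood highest at 504 CPM, followed by ODC1 at 126, AZIN1 at 85.2, AMD1 at 78.9, SRM at 78.4, SMS at 71.3, SAT1 at 26.8, OAZ2 at 11.1, DOHH at 7.99 and DHPS at 3.98. The place of DHPS is uncertain, because exons of other genes cover 93.5% of its canonical transcript and its reads may be counted incompletely. For OAZ1 that share was 19.6%. With quizartinib in RPMI, SAT1 at 78.9 CPM per kilobase stood above ODC1 at 31.8, AMD1 at 37.0, SRM at 11.6 and SMS at 48.4. With quizartinib in hBMSC-CM, SAT1 at 114.8 CPM per kilobase likewise stood above ODC1 at 54.9, AMD1 at 70.5, SRM at 45.5 and SMS at 61.3. The order of synthesis and acetylation genes was thus inverted in both quizartinib groups, as a statement of levels per length and not of enzyme activity.

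The other genes of the pathway were taken from 5 lists of 38 genes, of which 25 passed the filter and 13 did not, 7 of them with 0 counts in every library. With quizartinib in RPMI, 4 of the 25 rose, 18 fell and 3 did not pass the test, and in hBMSC-CM 3 rose, 18 fell and 4 did not pass. Of all genes tested, 79.3% were called in RPMI (39.2% lower) and 67.1% in hBMSC-CM (33.7% lower). The median log2 fold change of the 25 was -1.002 in RPMI and -0.48 in hBMSC-CM, beside 0.02 and 0.01 over all genes. Under quizartinib, hBMSC-CM held 17 of the 25 above their RPMI level, 5 were lower and 3 did not pass, beside 69.8% of all genes called. With vehicle, 9 were higher, 1 (ADI1, -0.24) was lower and 15 did not pass, beside 32.1% of all genes called. Beside SAT2 and AZIN2, the genes that rose with the drug were ASS1 (0.42) and MAT2B (0.20) in RPMI and ASL (0.20) in hBMSC-CM. ADI1, ASS1, MAT2B and ASL lie outside the rule for named genes and were chosen after their values were seen.

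Of the genes for arginine and ornithine supply, 6 of 8 tested fell in both media, 1 rose in each and 1 did not pass in each, where 39.2% of all genes fell in RPMI and 33.7% in hBMSC-CM. SLC7A1, a cationic amino acid transporter that imports arginine, had the largest fall, from 216 ± 7.96 to 18.1 ± 1.31 CPM in RPMI and from 266 ± 23.7 to 110 ± 5.31 CPM in hBMSC-CM (SD, n = 3). Its log2 fold changes were -3.58 (edgeR adjusted p = 1.93e-20) and -1.27 (adjusted p = 1.13e-13), with an interaction of 2.31 (adjusted p = 2.88e-14). SLC25A15, the mitochondrial ornithine carrier, dropped by 1.91 (log2) in RPMI and by 0.71 in hBMSC-CM. ALDH18A1, which makes the precursor of ornithine and proline from glutamate, fell by 1.80 and by 0.76. AGMAT, named for agmatinase, fell by 2.38 and by 0.66.

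Of the genes for S-adenosylmethionine supply and methionine salvage, 5 of 7 tested fell in each medium, beside 39.2% of all genes in RPMI and 33.7% in hBMSC-CM. In RPMI 1 rose (MAT2B) and 1 did not pass, and in hBMSC-CM 2 did not pass. MAT2A, which encodes the methionine adenosyltransferase of most tissues, fell from 320 ± 20.9 to 78.1 ± 6.93 CPM in RPMI and from 346 ± 21.1 to 255 ± 17.6 CPM in hBMSC-CM, with log2 fold changes of -2.03 and -0.44 and an interaction of 1.59 (edgeR adjusted p = 8.6e-12). MTAP, which cleaves the methylthioadenosine left over by spermidine and spermine synthesis, dropped by 1.44 (log2) in RPMI and by 0.58 in hBMSC-CM. ENOPH1, a later enzyme of the salvage route, fell by 1.80 and by 0.87.

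Of the 11 transport genes listed, 4 passed the filter and all 4 fell in both media, where 39.2% of all genes fell in RPMI and 33.7% in hBMSC-CM. The other 7 were not tested, and 3 of them had 0 counts in every library. Of those with counts, CAV1 and ATP13A4, chosen after their values were seen, lay higher with the drug without overlap. CAV1 went from 0.477 ± 0.211 to 1.93 ± 0.392 CPM in RPMI and from 0.223 ± 0.0198 to 1.14 ± 0.179 CPM in hBMSC-CM. ATP13A4 went from 0.250 ± 0.0564 to 1.16 ± 0.0502 CPM in RPMI and from 0.158 ± 0.0368 to 0.638 ± 0.175 CPM in hBMSC-CM. Among the tested genes, ATP13A2, a lysosomal polyamine exporter, dropped by 1.002 (log2) in RPMI and by 0.64 in hBMSC-CM, SLC22A16 fell by 2.17 and by 0.48, and GPC1, a heparan sulfate proteoglycan, fell by 1.52 and by 0.95.

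In the list of breakdown and further regulators, 2 of 3 tested genes rose in both media and 1 did not pass, where 40.1% of all genes rose in RPMI and 33.4% in hBMSC-CM. SAT2, a relative of SAT1, rose from 2.68 ± 0.415 to 11.6 ± 0.472 CPM in RPMI and from 3.37 ± 0.557 to 7.45 ± 0.597 CPM in hBMSC-CM (log2 fold changes 2.10 and 1.16). AZIN2, a second antizyme inhibitor, rose from 1.18 ± 0.105 to 14.6 ± 1.15 CPM in RPMI and from 0.818 ± 0.397 to 3.02 ± 0.496 CPM in hBMSC-CM (3.63 and 1.85). It moved opposite to AZIN1, and its interaction was -1.78 (edgeR adjusted p = 0.000165).

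The 3 genes listed for the hypusinated translation factor all fell in both media, as DOHH did, where 39.2% of all genes fell in RPMI and 33.7% in hBMSC-CM. EIF5A measured 412 ± 19.0 CPM with vehicle and 112 ± 5.83 CPM with quizartinib in RPMI. Its hBMSC-CM levels were 439 ± 18.2 CPM with vehicle and 246 ± 10.5 CPM with quizartinib. Its log2 fold changes were -1.88 (edgeR adjusted p = 3.33e-18) and -0.84 (adjusted p = 5.6e-12), and the interaction was 1.04 (adjusted p = 1.24e-10). EIF5A2, the second gene for this factor, was at 2.22 ± 0.201 CPM with vehicle in RPMI, and it fell by 1.16 and by 0.96 with no called interaction (0.20, 95% interval -0.41 to 0.80). EIF5AL1, a near-identical copy of EIF5A, fell by 2.01 and by 0.63, and its reads could not be told with certainty from those of EIF5A.

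**Figure D5:**
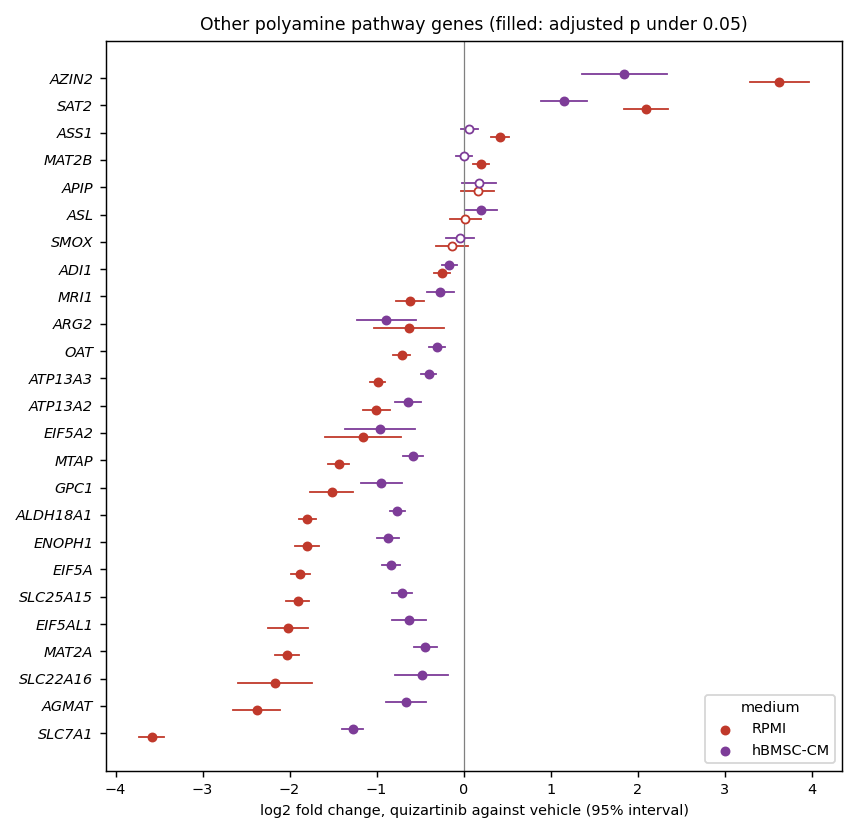
Log2 fold change with quizartinib (horizontal axis, points) and its 95% interval (lines) for the 25 other pathway genes tested, in RPMI (red) and hBMSC-CM (purple), filled where the edgeR adjusted p was under 0.05. SLC7A1 had the lowest value in both media and AZIN2 the highest in both.

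Markers were examined for the cell line and for the stromal cells that conditioned the medium. The 10 blood and AML markers summed to between 1059 and 1108 CPM with vehicle and 1737 to 1751 CPM with quizartinib in RPMI, and to 1223 to 1248 CPM and 1944 to 2112 CPM in hBMSC-CM, with LYZ or PTPRC the most abundant. This sum moved with the drug and with the medium, and its part in the results was not tested. The markers did not move as one: of the 8 tested, 5 rose and 3 fell with quizartinib in RPMI, the latter being ITGAM (-1.01), MPO (-0.41) and CD33 (-0.28), and 4 rose and 1 (MPO, -0.45) fell in hBMSC-CM. FLT3, the gene of the drug's target, was at 209 ± 3.43 CPM with vehicle and 454 ± 9.42 CPM with quizartinib in RPMI, and its hBMSC-CM levels were 113 ± 3.34 CPM and 157 ± 5.87 CPM. CD34 was at 0 or close to it in all groups, and CD14 was at most 2.11 CPM in any library. The 10 stromal markers summed to between 1.04 and 6.15 CPM, with FN1 the most abundant in the vehicle groups and COL1A1 in the quizartinib groups, and COL3A1, DCN, LUM, THY1 and POSTN were at 0 in every library. COL1A1, the only stromal marker past the filter and past it only through the RPMI quizartinib group, was at 0.177 CPM with vehicle and 4.61 CPM with quizartinib in RPMI, and its hBMSC-CM means were 0.225 CPM with vehicle and 0.992 CPM with quizartinib. The share of counts on mitochondrial genes moved with the drug, from 0.726% ± 0.0563 to 1.05% ± 0.0466 in RPMI and from 0.511% ± 0.0888 to 0.856% ± 0.150 in hBMSC-CM, and its part in the results was not tested. Rows for processed copies of AMD1 and SRM held at most 6 counts in any library, and so added little to either gene.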

How the data were processed

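Per the methods of the study, poly-A-selected RNA was sequenced in paired ends, trimmed with BBDuk, and aligned and counted per gene by the authors with STAR 2.6.0a against Ensembl release 96 of hg38. The deposited values are raw counts per gene name, with names that had several identifiers summed, and no strand setting was stated. Following the stated filter, names whose mean count or mean CPM across libraries was under 1 were left out, and 12998 genes were tested. CPM values were computed from counts on tested genes with TMM factors. All 12 libraries entered 1 edgeR 4.0.16 quasi-likelihood model (R 4.3.3) with a mean per group and 8 residual degrees of freedom, and Benjamini-Hochberg adjustment ran over all genes tested at 0.05. The study named limma, so limma-voom (3.58.1) and DESeq2 (1.42.0) were alternatives, beside other scaling, other filters, a replicate block, fits on the compared groups alone and each library left out. Count ratios were compared by exact permutation tests. The code was tested on simulated data. The members and lists were chosen with earlier results of these data known. The named genes were all members, listed pathway genes with an absolute log2 fold change of at least 1 in any comparison, EIF5A, EIF5A2 and MYC, and the 3 genes nearest to ODC1, SRM, AMD1 and SAT1. Replicates differed beyond counting noise in all 12 pairs within groups, with a chi-square per gene of 2.66 to 10.5. At these depths a gene with 0 counts could have had up to 0.0951 to 0.150 per 1000000 of the total count. That is the level of 3 counts, for counting error only. These limits use total counts without TMM factors, so they are not on the scale of the CPM values above. Gene positions are from GENCODE v44 and E-box windows from RefSeq, both on GRCh38.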

Additional observations from a re-analysis of the deposited data

Results flagged for a closer look

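In 9 of the 10 members the response to quizartinib differed between RPMI and hBMSC-CM by the interaction test of the edgeR model, given here as the log2 fold change in hBMSC-CM minus that in RPMI. Of all genes tested, 45.2% had a called interaction. The values were 1.71 for SRM, 0.78 for ODC1, 0.71 for AMD1, 0.44 for DOHH, 0.21 for AZIN1 and 0.20 for SMS, all genes that fell with the drug in both media. SAT1 and OAZ2, which rose, had -0.36 and -0.44. DHPS had 0.77, with a fall in RPMI and no call in hBMSC-CM. All 9 kept the sign of the interaction and the call under all alternatives. With 3 libraries in each group, single libraries far from the rest of their group were not looked for.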

How the results depend on the processing

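Of the log2 fold changes of single members under the alternatives, 1200 kept their direction and side of the threshold, 26 lost the call, 12 gained it and 12 changed sign. All 48 ratio differences recomputed without 1 library kept their sign, and their size was not compared. Members called in hBMSC-CM against RPMI with vehicle numbered 5, and 3 with DESeq2, with 3 to 5 when 1 library was left out (3 without vehicle replicate 2 in either medium). The changes of sign were all in values near 0 that were not called. For ODC1 between media with vehicle they were -0.0186 with upper-quartile factors and -0.00923 with library size only, and the range without 1 library was -0.0195 to 0.0361. For the interaction of OAZ1 they were 0.00909 with library size only, 0.0650 with no filter and 0.0256 with filterByExpr, and the range without 1 library was -0.0548 to 0.0445. For OAZ2 between media with vehicle the range without 1 library was -0.102 to 0.0362, and for DHPS with quizartinib in hBMSC-CM it was -0.00014 to 0.26. Calls gained were those of OAZ1 between media with quizartinib (0.14 to 0.18 under no filter, filterByExpr and 2 left-out libraries) and with vehicle (0.16 without hBMSC-CM vehicle replicate 1), of OAZ1 (-0.12 with no filter) and OAZ2 (0.22 to 0.25 with upper-quartile factors, library size only and 2 left-out libraries) with quizartinib in hBMSC-CM against vehicle in RPMI, and of DHPS between media with vehicle (-0.37 with no filter, -0.46 without RPMI vehicle replicate 1). The cause was not tested. Upper-quartile factors shifted the all-gene median with quizartinib in RPMI by 0.10 (log2), and library size only raised called genes that were higher from 49.8% to 62.8% with quizartinib in hBMSC-CM and from 49.2% to 62.1% with quizartinib in hBMSC-CM against vehicle in RPMI. With no filter, 70.6% of genes with a called interaction were higher, against 57.6%.

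The labels number the replicates 1 to 3 in each group, but same-numbered libraries did not deviate together (correlations of deviations -0.23 to 0.10, median -0.04, over 18 pairs), so the numbers were not used to pair them. With the replicate number as a block, 8 members were called in hBMSC-CM against RPMI with quizartinib in place of 9, the one lost being DHPS (0.39, edgeR adjusted p = 0.0515), and no other member call changed. DHPS had the lowest level, at 3 to 6 CPM, and the widest replicate spread of the members.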

Other observations

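SMOX, which encodes spermine oxidase and was chosen after its values were seen, followed the medium and had no call with the drug. It measured 14.1, 12.6 and 11 CPM with vehicle and 12, 11.2 and 11.3 CPM with quizartinib in RPMI, and 21.6, 19.9 and 20.8 CPM with vehicle and 21.4, 19.0 and 19.9 CPM with quizartinib in hBMSC-CM. The media did not overlap under either treatment. The log2 difference between hBMSC-CM and RPMI was 0.72 with vehicle (95% interval 0.55 to 0.89, edgeR adjusted p = 1.01e-06) and 0.81 with quizartinib (0.63 to 0.98, adjusted p = 2.56e-08). The log2 fold change with quizartinib was -0.13 in RPMI (-0.31 to 0.05, adjusted p = 0.170) and -0.05 in hBMSC-CM (-0.21 to 0.12, adjusted p = 0.618).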
